A study of Mus musculus with 12 samples.

Results

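Transcripts of 10 nuclear receptor genes that sense lipids and related hormones were followed in naïve and demyelinated spinal cord white matter of young and middle-aged mice. The genes were taken by name from the count table and comprise the retinoid X receptors (Rxra, Rxrb, Rxrg), the peroxisome proliferator-activated receptors (Ppara, Ppard, Pparg), the liver X receptors (Nr1h3 and Nr1h2, encoding LXRα and LXRβ), the thyroid hormone receptor Thra and the vitamin D receptor Vdr. They are 10 of the 46078 genes in the table, and each of them passed the filter on low counts that left 15866 genes for testing. Laser capture microdissection was used to cut ventrolateral spinal cord white matter from C57Bl6 mice, and 4 groups of 3 libraries were sequenced: young naïve, young injured, middle-aged naïve and middle-aged injured. The labels give the ages only in words, and the methods put young mice at 6 weeks and middle-aged mice at 8 months. Injured tissue was collected 72 h (day 3) after lysolecithin, a detergent-like lipid that destroys myelin, had been injected locally. Naïve mice had no lesion, so an effect of the injection itself cannot be told apart from that of demyelination. The RNA of a library was pooled from 5 mice, whereas the series text speaks of 5 animals per condition. The sources used here do not say whether the 3 libraries of a group came from different animals, so p-values measure the spread between these libraries only, which may be technical.

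Nuclear receptors are transcription factors that are switched by small fat-soluble ligands. RXR proteins bind DNA as the partner of PPAR, LXR, thyroid hormone, vitamin D and retinoic acid receptors, so 1 family of partners is shared by the other receptors described here. LXRs respond to oxysterols and drive cholesterol export, PPARs respond to fatty acids and their derivatives, and thyroid hormone and retinoid signals are known to act on the maturation of oligodendrocytes, the cells that make myelin.

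Library totals ran from 9834447 to 12807437 counts, so 3 counts, taken as the floor of detection, correspond to 0.234 to 0.305 CPM (counts scaled to a common library size). Levels below are CPM after a correction by the trimmed mean of M values (TMM), given as mean ± SD over n = 3 libraries unless each library is listed. The counts covered tissue with the defining transcripts of white matter: the summed level of 6 oligodendrocyte markers was 86589 to 101823 CPM in young naïve and 52942 to 60237 CPM in middle-aged naïve libraries. After injury all 6 fell at both ages (young injured libraries at 18228 to 20232 CPM, middle-aged injured libraries at 7920 to 12431 CPM), and all 6 pan-myeloid markers rose (from 71.7 to 102 CPM up to 1371 to 1392 CPM in young mice, and from 110 to 147 CPM up to 1459 to 1947 CPM in middle-aged mice). All 4 fibroblast markers rose as well. Of 5 astrocyte markers 4 fell at each age (medians of all 5 -1.29 and -1.14 on the log2 scale), and of 4 neuron markers 2 fell in young mice, and 3 fell and 1 rose in middle-aged mice (medians -0.93 and -1.64). No marker of these lists was at 0 in all libraries. In such bulk tissue, fewer cells of a type and less RNA per cell cannot be told apart, and the part of these shifts in the receptor values below was not tested. Middle-aged naïve replicate 2 stood apart from the other libraries of its group, and values that moved by more than 1.5 times, or changed a call, without it are given beside the results.

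After injury, Rxra, Pparg and Nr1h3 rose at both ages, Thra, Vdr and Rxrg fell at both ages, and Ppara fell in young mice. Rxrb, Ppard and Nr1h2 did not pass the test at either age. In young mice 3 of the 10 genes were higher and 4 lower at an adjusted p under 0.05 (edgeR's quasi-likelihood test, Benjamini-Hochberg adjustment over all genes tested), beside 28.3% of all genes called higher and 26.3% called lower. In middle-aged mice 3 were higher and 3 lower, beside 29.2% and 29.3% of all genes. The 3 genes that rose and the 3 that fell at both ages stand beside 24.5% of all genes that rose and 22.8% that fell at both ages. These counts are near the background and set no receptor apart by being called. The injured and naïve libraries did not overlap for 9 of the 10 genes in young mice (67.2% of all genes) and for 7 in middle-aged mice (61.1%). The median size of the log2 fold change was 1.09 in young and 1.1 in middle-aged mice for the 10 genes, and 0.71 and 0.79 over all genes.

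**Figure D1:**
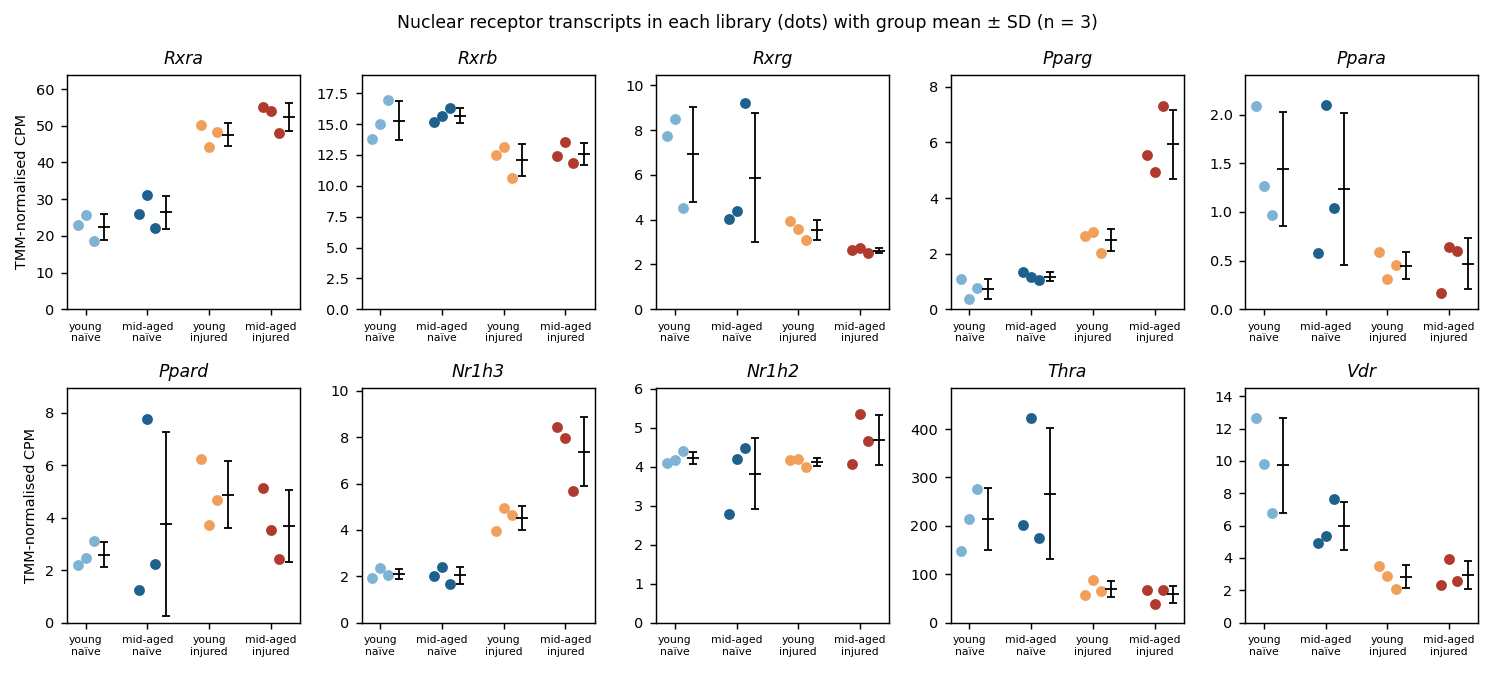
Level of each receptor transcript (y axis, TMM-normalised CPM, from 0) in the 12 libraries (dots), by group, with group mean ± SD (n = 3). Rxra, Pparg and Nr1h3 were higher in every injured than in every naïve library, Thra and Vdr were lower, and the middle-aged naïve dots of Ppard spread from 1.25 to 7.75 CPM.

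**Figure D2:**
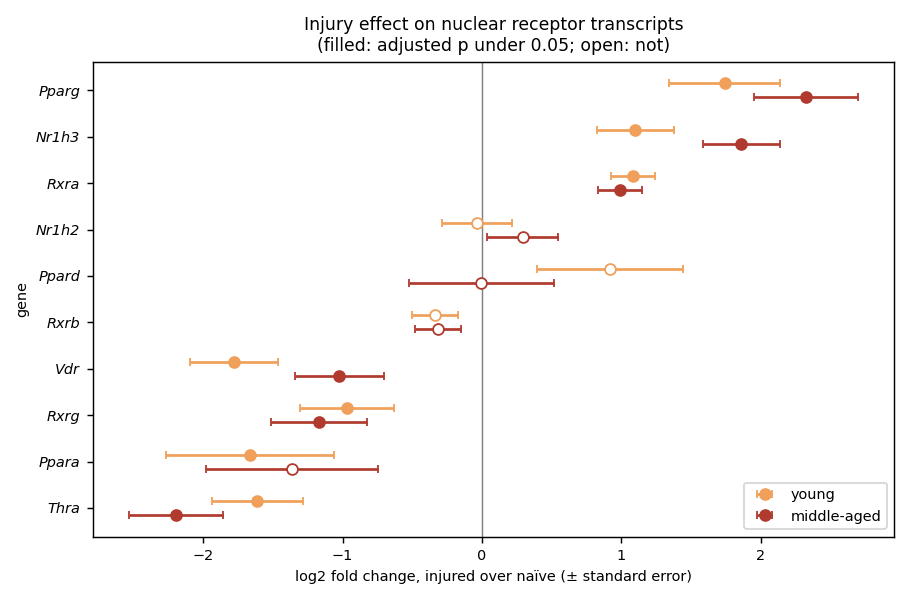
Log2 fold change of injured over naïve libraries (x axis) with its standard error for each receptor gene, young in orange and middle-aged in dark red, with filled symbols for an adjusted p under 0.05. Pparg, Nr1h3 and Rxra lie right of 0 and Thra, Rxrg and Vdr left of it at both ages, and Ppara is filled in young mice only.

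To compare levels between genes, CPM was divided by the length of each gene's merged exons in kilobases (kb). Thra was the most abundant of the 10 transcripts in every group by mean, at 46.3 ± 13.9 CPM per kb in young naïve and 57.7 ± 29.4 CPM per kb in middle-aged naïve libraries, and 15.1 ± 3.63 and 12.6 ± 3.65 CPM per kb after injury in young and middle-aged mice. Rxra was next everywhere, at 4.10 ± 0.639 and 4.84 ± 0.820 CPM per kb in naïve and 8.70 ± 0.574 and 9.59 ± 0.713 CPM per kb in injured libraries. The level of Rxra was thus 8.86% of that of Thra in young naïve tissue and 76.1% in middle-aged injured tissue, where the library ranges of both genes overlapped. In naïve tissue Rxra and Rxrb overlapped at both ages, and below them came Rxrg, whose range overlapped that of Rxrb at both ages and that of Vdr in young mice. Nr1h2 and Vdr followed with overlapping ranges, then Nr1h3, which lay apart from its neighbours in young mice and overlapped both in middle-aged mice. The 3 PPAR genes were last and overlapped their neighbours among themselves, and Pparg was lowest in young naïve tissue (0.249 ± 0.124 CPM per kb). After injury Nr1h3 stood at rank 4 at both ages, at 1.80 ± 0.204 CPM per kb in young mice, where its range overlapped that of Rxrg next below it, and at 2.93 ± 0.587 CPM per kb in middle-aged mice, where it overlapped Rxrb above and Pparg below it. Pparg moved from rank 10 to rank 7 in young mice, and from rank 9 to rank 5 in middle-aged mice, where it reached 2.01 ± 0.420 CPM per kb. Its rank in middle-aged naïve tissue was 8 without replicate 2 of that group, which was high in Ppard. Ppara was last in both injured groups (0.117 ± 0.0361 and 0.122 ± 0.0686 CPM per kb).

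Of the RXR genes, Rxra (chr2:27676440-27762957, GRCm38, plus strand) encodes RXRα, a broadly expressed isotype. It was at 22.8, 25.6 and 18.7 CPM in young naïve and 25.9, 31.1 and 22.2 CPM in middle-aged naïve libraries. Young injured libraries reached 50.3, 44.1 and 48.2 CPM, and middle-aged injured libraries 55.2, 54.0 and 47.9 CPM. No injured library was as low as any naïve library, and the replicates were close together. The rise was 2.12-fold in young mice (log2 fold change 1.08, SE 0.16, adjusted p = 4.55e-05) and 1.99-fold in middle-aged mice (0.99, SE 0.16, adjusted p = 8.66e-05, edgeR).

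Rxrb (chr17:34031812-34038399, plus strand) encodes the RXRβ isotype, which is also broadly expressed. Its level was 15.3 ± 1.58 and 15.7 ± 0.579 CPM in young and middle-aged naïve and 12.1 ± 1.32 and 12.6 ± 0.884 CPM in injured libraries. Although the injured and naïve libraries did not overlap at either age, the differences were small and missed the threshold (log2 fold change -0.34, SE 0.16, adjusted p = 0.0978 in young and -0.32, SE 0.16, adjusted p = 0.114 in middle-aged mice, edgeR).

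Rxrg (chr1:167598384-167639623, plus strand) encodes RXRγ, an isotype of more restricted expression that has been tied to the differentiation of oligodendrocyte progenitors. It was at 7.73, 8.51 and 4.51 CPM in young naïve and 4.03, 4.40 and 9.19 CPM in middle-aged naïve libraries. After injury it was at 3.96, 3.56 and 3.08 CPM in young and 2.65, 2.71 and 2.50 CPM in middle-aged mice. The injured libraries lay close together below all naïve libraries of their age, whereas the naïve libraries were spread widely. It fell by 0.97 on the log2 scale in young mice (SE 0.34, adjusted p = 0.0244) and by 1.17 in middle-aged mice (SE 0.35, adjusted p = 0.00959, edgeR). Both calls rest on single libraries. Without middle-aged naïve replicate 3 the fall was 0.68 and no longer passed (adjusted p = 0.0810), and the call in young mice was lost without young naïve replicate 1 (adjusted p = 0.0734), young naïve replicate 2 (0.101), young injured replicate 2 (0.0587) or young injured replicate 3 (0.0788), or when libraries were scaled by their totals alone (0.0683).

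Within the RXR family, measured per kb, Rxra took 37.3% ± 1.63 of the transcripts in young naïve and 65.5% ± 3.16 in young injured libraries, and 42.9% ± 8.40 before and 69.0% ± 1.1 after injury in middle-aged mice. Rxrg took 27.1% ± 5.85, 11.6% ± 0.967, 22.2% ± 9.28 and 8.22% ± 0.234 in the same order. The family sum was 11 ± 1.26 and 11.3 ± 0.949 CPM per kb in young and middle-aged naïve and 13.3 ± 0.682 and 13.9 ± 0.923 CPM per kb in injured libraries.

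**Figure D3:**
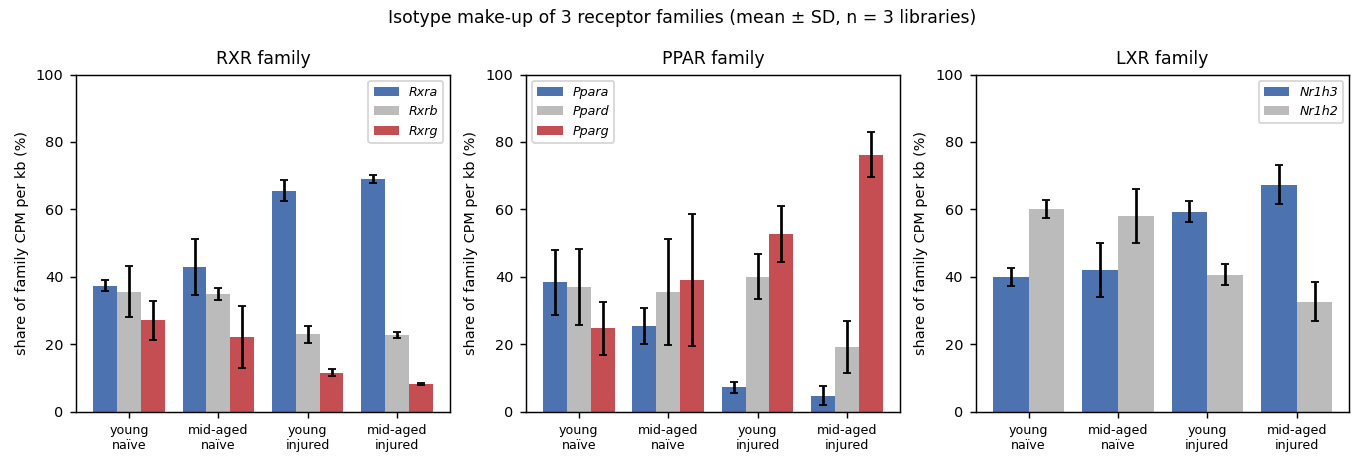
Share of each isotype in the transcripts of its family (y axis, % of the summed CPM per kb, mean ± SD, n = 3 libraries) in the 4 groups, for the RXR, PPAR and LXR families. The share of Rxra rose from 37.3% to 65.5% in young mice, that of Pparg from 39.0% to 76.2% in middle-aged mice, and Nr1h3 took more than Nr1h2 only in the injured groups by mean.

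Of the PPAR genes, Pparg (chr6:115360951-115490399, plus strand) encodes PPARγ, known for lipid uptake and storage in fat cells and macrophages. It was close to the floor of detection in young naïve libraries, with 12, 4 and 7 counts (1.09, 0.362 and 0.752 CPM), and at 14, 11 and 13 counts in middle-aged naïve libraries (1.34, 1.15 and 1.04 CPM). The injured libraries held 36, 36 and 27 counts in young mice (2.64, 2.79 and 2.03 CPM) and 67, 62 and 85 counts in middle-aged mice (5.55, 4.94 and 7.33 CPM). Every injured library was above every naïve library, and every middle-aged injured library was above every young injured library. The rise was 3.35-fold in young mice (log2 fold change 1.74, SE 0.40, adjusted p = 0.00191) and 5.02-fold in middle-aged mice (2.33, SE 0.37, adjusted p = 9.01e-05, edgeR). In each injured library of either age, Pparg was the PPAR transcript with the highest level per kb. In young injured tissue the library ranges of Pparg and Ppard overlapped.

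Ppara (chr15:85734983-85802819, plus strand) encodes PPARα, a driver of fatty acid oxidation in liver. With 23, 14 and 9 counts in young naïve and 8, 4 and 6 in young injured libraries, and 6, 20 and 13, then 2, 8 and 7 in those of middle-aged mice, it was the least covered of the receptors, and 1 middle-aged injured library was under the floor. Its level was 1.44 ± 0.583 and 1.24 ± 0.779 CPM in young and middle-aged naïve and 0.449 ± 0.138 and 0.469 ± 0.263 CPM in injured libraries. It fell by 1.66 on the log2 scale in young mice (SE 0.60, adjusted p = 0.0308, edgeR). That call was lost without young naïve replicate 1 (adjusted p = 0.132), young injured replicate 2 (0.104) or young injured replicate 3 (0.0758), without a filter on low counts (0.0520) and with library totals alone (0.0513). In middle-aged mice the groups overlapped and the log2 fold change of -1.36 (SE 0.62) missed the threshold (adjusted p = 0.0706, edgeR). It passed there without middle-aged naïve replicate 1 (-1.70, adjusted p = 0.0290), and without replicate 2 of that group, which left a naïve mean of 0.807 CPM, it was -0.79 (adjusted p = 0.292). The counts thus do not separate a fall at 1 age from a fall at both, and the difference between the ages was 0.30 (SE 0.87, adjusted p = 0.953, edgeR).

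Ppard (chr17:28232700-28301474, plus strand) encodes PPARδ, the broadly expressed isotype. It held 24, 27 and 29 counts in young naïve and 13, 74 and 28 counts in middle-aged naïve libraries (2.18, 2.44 and 3.11 CPM, then 1.25, 7.75 and 2.24 CPM). In injured libraries it held 85, 48 and 62 counts in young mice (6.23, 3.72 and 4.66 CPM) and 62, 44 and 28 counts in middle-aged mice (5.14, 3.51 and 2.41 CPM). The young groups did not overlap, and the middle-aged naïve group ran from the lowest to the highest level of the gene. The change on the log2 scale was 0.92 in young mice (SE 0.52, adjusted p = 0.153) and -0.00 in middle-aged mice (SE 0.52, adjusted p = 0.995, edgeR). Without middle-aged naïve replicate 2, the library that stood apart, Ppard passed at both ages, at 1.06 in middle-aged mice (adjusted p = 0.0356) and with an adjusted p of 0.0308 in young mice. A fit of the 6 young libraries alone called it as well (adjusted p = 0.0185).

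Within the PPAR family, measured per kb, Pparg made up 24.7% ± 7.88 of the transcripts in young naïve and 52.7% ± 8.20 in young injured libraries, and 39.0% ± 19.6 and 76.2% ± 6.64 in middle-aged mice. Ppara went from 38.3% ± 9.62 to 7.24% ± 1.67 in young mice, and from 25.5% ± 5.33 to 4.73% ± 2.82 in middle-aged mice.

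Of the LXR genes, Nr1h3 (chr2:91184061-91202834, minus strand) encodes LXRα, the isotype found in macrophages and liver. It was at 1.91, 2.35 and 2.04 CPM in young naïve and 2.01, 2.41 and 1.68 CPM in middle-aged naïve libraries (19 to 26 counts). Young injured libraries were at 3.96, 4.96 and 4.66 CPM, and middle-aged injured libraries at 8.46, 7.97 and 5.69 CPM (54 to 102 counts). Naïve libraries of both ages shared 1 narrow range, and the injured libraries lay above it, those of middle-aged mice highest. The rise was 2.15-fold in young mice (log2 fold change 1.1, SE 0.28, adjusted p = 0.00357) and 3.63-fold in middle-aged mice (1.86, SE 0.28, adjusted p = 4.36e-05, edgeR). The exons of Nr1h3 share 34 bases (chr2:91202745-91202778, 1.35% of its exon length) with Gm13783, a non-coding gene on the same strand, so few reads could have been split between them.

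Nr1h2 (chr7:44549616-44553951, minus strand), which encodes the broadly expressed LXRβ, was at 4.22 ± 0.162 and 3.82 ± 0.908 CPM in young and middle-aged naïve and 4.12 ± 0.112 and 4.69 ± 0.641 CPM in injured libraries. The log2 fold change with injury was -0.04 in young mice (SE 0.25, adjusted p = 0.918) and 0.29 in middle-aged mice (SE 0.25, adjusted p = 0.339, edgeR), neither past the threshold. With these, Nr1h3 made up 39.8% ± 2.72 of the LXR transcripts per kb in young naïve and 42.0% ± 7.99 in middle-aged naïve libraries, and 59.3% ± 3.05 and 67.4% ± 5.81 after injury.

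Thra (chr11:98740638-98769006, plus strand) encodes the thyroid hormone receptor α proteins, among them the hormone-binding TRα1 and the splice form TRα2 that does not bind hormone, and a count per gene does not separate them. It was at 149, 215 and 277 CPM in young naïve and 201, 422 and 175 CPM in middle-aged naïve libraries, and injury brought it to 56.4, 88.6 and 64.5 CPM in young mice and 68.2, 38.7 and 67.5 CPM in middle-aged mice. Every injured library was below every naïve library, and the counts of 485 to 4028 per library made it the best covered of the receptors. It fell by 1.61 on the log2 scale in young mice (SE 0.33, adjusted p = 0.000801) and by 2.19 in middle-aged mice (SE 0.34, adjusted p = 5.91e-05, edgeR). Without middle-aged naïve replicate 2, which had the highest level, the fall in middle-aged mice was 1.70 (adjusted p = 6.80e-05, edgeR), and it passed the test with any other library left out as well.

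The end of Thra overlaps Nr1d1, which encodes the circadian repressor REV-ERBα on the opposite strand. The overlap covers 263 exon bases (chr11:98768157-98768419), all of them coding in Thra and 5.70% of its exon length. Nr1d1 itself was at 50.9 ± 23.6 and 56.6 ± 36.6 CPM in young and middle-aged naïve and 16.1 ± 3.06 and 16.1 ± 7.83 CPM in injured libraries. It fell by 1.66 on the log2 scale in young mice (SE 0.46, adjusted p = 0.00681) and by 1.81 in middle-aged mice (SE 0.46, adjusted p = 0.00376, edgeR). Without middle-aged naïve replicate 2, at 97.5 CPM, the middle-aged naïve mean of Nr1d1 was 36.1 CPM and the fall was 1.16 (SE 0.40, adjusted p = 0.0217, edgeR). The sources used here do not give the strand setting of the read counting, so reads from the shared bases cannot be assigned to either gene. Both values are uncertain by those reads, whose number was not measured and whose share need not be the same in both genes.

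Vdr (chr15:97854425-97910630, minus strand) encodes the receptor for calcitriol, the hormonal form of vitamin D. It was at 12.6, 9.78 and 6.77 CPM in young naïve and 4.89, 5.34 and 7.67 CPM in middle-aged naïve libraries, and with injury at 3.52, 2.86 and 2.11 CPM in young mice and 2.32, 3.91 and 2.59 CPM in middle-aged mice. All injured libraries were below all naïve libraries of either age, and the injured groups of both ages shared 1 range. It fell by 1.78 on the log2 scale in young mice (SE 0.32, adjusted p = 0.000270) and by 1.02 in middle-aged mice (SE 0.32, adjusted p = 0.0135, edgeR). The call in middle-aged mice was lost without middle-aged naïve replicate 3 (-0.79, adjusted p = 0.0647) or middle-aged injured replicate 1 (-0.88, adjusted p = 0.0582).

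Because pairs of receptors from the same library can be compared without regard to how libraries are scaled, 4 isotype ratios were tested between injured and naïve libraries. The test was a 2-sided exact permutation test over 12 libraries with labels exchanged within each age, which cannot give less than p = 0.005, and p-values were adjusted over the 4 ratios. The ratio of Nr1h3 to Nr1h2 per kb, as the geometric mean over libraries, went from 0.670 to 1.46 in young mice, and from 0.725 to 2.07 in middle-aged mice, a mean shift of 1.32 on the log2 scale (exact permutation p = 0.005, adjusted p = 0.00667). The ratio of Rxrg to Rxra went from 0.719 to 0.178 in young mice, and from 0.50 to 0.121 in middle-aged mice, a shift of -2.03 (exact permutation p = 0.005, adjusted p = 0.00667). The ratio of Ppara to Ppard went from 1.07 to 0.193 in young mice, and from 0.778 to 0.247 in middle-aged mice, a shift of -2.06 (exact permutation p = 0.005, adjusted p = 0.00667). The ratio of Pparg to Ppard went from 0.705 to 1.33 in young mice, and from 1.09 to 4.22 in middle-aged mice, a shift of 1.43 (exact permutation p = 0.025, adjusted p = 0.025). Without middle-aged naïve replicate 2 the middle-aged naïve ratio of Pparg to Ppard was 1.81 and the shift 1.06 (exact permutation, adjusted p = 0.04). This last call was lost without young naïve replicate 2 (adjusted p = 0.055), middle-aged injured replicate 2 (0.05) or middle-aged injured replicate 3 (0.06), and the other ratios kept theirs with any library left out.

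Age was compared within naïve and within injured tissue. Of the 10 genes, 0 passed the test in either condition, and 0 passed for a difference of the injury effects between the ages (edgeR). The background was 3.8% of all genes for age in naïve tissue, 1.15% for age in injured tissue and 0.139% for the difference of injury effects. At an unadjusted p under 0.05 the counts were 1, 2 and 0, and DESeq2 called 0, 1 and 0. The gene called by DESeq2 was Pparg in injured tissue. Its level was 2.38-fold higher in middle-aged than in young injured libraries (log2 fold change 1.25, SE 0.34, unadjusted p = 0.00260, adjusted p = 0.116, edgeR), with an adjusted p of 0.0230 in DESeq2 and 0.0133 when edgeR was fitted on the injured libraries alone. Nr1h3 was 1.63-fold higher in middle-aged injured libraries (0.70, SE 0.26, unadjusted p = 0.0154, adjusted p = 0.296, edgeR). Injured libraries of young and middle-aged mice did not overlap for 3 of the 10 genes. These were Pparg, Nr1h3 and Rxrg, the last lower in middle-aged mice (-0.43, SE 0.35, adjusted p = 0.876, edgeR). The share of all genes without overlap was not computed for age, so this sets no receptor apart. Vdr was lower in middle-aged naïve libraries, with overlap (-0.70, SE 0.30, unadjusted p = 0.0370, adjusted p = 0.236, edgeR). The injury effect of Nr1h3 differed between the ages by 0.76 (SE 0.39, adjusted p = 0.557), that of Vdr by 0.76 (SE 0.45, adjusted p = 0.638) and that of Pparg by 0.58 (SE 0.56, adjusted p = 0.797, edgeR), none past the threshold. In injured tissue the pan-myeloid markers were at 1371 to 1392 CPM in young and 1459 to 1947 CPM in middle-aged libraries (a median log2 difference of 0.34), and their part in the Pparg and Nr1h3 values was not tested.

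The genes whose patterns over the 12 libraries lay closest to each receptor were found as the smallest root mean square difference of centred log2 CPM among 13078 genes, which gives a description and no test. Rxra was nearest to Eif2s1 (0.105), a subunit of the initiation factor eIF2, and B4galt7 (0.107). Rxrb was nearest to Clpb (0.0835) and Mprip (0.0889), and Nr1h2 to Snapc2 (0.105) and Nploc4 (0.109). Nr1h3 was nearest to Snx8 (0.191) and Coa4 (0.193), and Rxrg to Igsf21 (0.204) and Gm10644 (0.225). Vdr was nearest to St8sia3 (0.241), a sialyltransferase, and Arhgap44 (0.260), and Thra to Ndrg1 (0.273) and Tmcc3 (0.289). Pparg was nearest to the small heat shock protein gene Hspb1 (0.353) and the ceramide synthase gene Cers6 (0.385), Ppara to Tenm1 (0.319) and Fhod3 (0.342), and Ppard to Tdp1 (0.260) and Ptpn23 (0.345).

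The rest of the nuclear receptor superfamily was read from the same fit. The counts of this and later lists stand beside all genes tested, of which 28.3% were higher and 26.3% lower in young mice. In middle-aged mice these shares were 29.2% and 29.3%. For age, the shares of all genes called were 3.8% in naïve and 1.15% in injured tissue. Of 39 other receptor genes 27 were tested, and 5 were higher and 14 lower in young and 3 higher and 15 lower in middle-aged mice, with median log2 fold changes of -0.54 and -0.68 beside 0.00 and -0.03 over all genes. Among those that fell were Esrrb (-2.82 in young and -2.68 in middle-aged mice) and Esrrg (-2.42 and -2.10), both estrogen-related receptors. Those that rose at both ages included the retinoic acid receptor Rara (1.78 and 1.74), Nr2f2 (1.53 and 0.80) and the estrogen receptor Esr1 (1.20 and 1.04). Rara, a partner of RXR, was at 1.12 and 1.39 CPM in naïve and 3.92 and 4.79 CPM in injured libraries of young and middle-aged mice.

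Coactivators and corepressors are the proteins that receptors recruit to raise or to lower transcription. Of 11 coactivators tested 5 were higher and 2 lower at each age, with 4 of the higher ones shared (medians 0.30 and 0.13), and Prmt1, also on the list, was not analysed here. Ppargc1a, the PPARγ coactivator of mitochondrial genes, fell by 1.58 in young and 1.42 in middle-aged mice on the log2 scale, and Ncoa1 fell by 0.77 and 1.0. Pprc1 (1.27 and 1.02), Ncoa3 (1.26 and 0.85) and the acetyltransferase Ep300 (1.01 and 0.89) rose. Of 9 corepressor genes 4 were higher in young and 3 in middle-aged mice and the remaining 5 and 6 did not pass (medians 0.41 and 0.12), led by Tbl1xr1 (0.41 and 0.63), Nrip1 (0.49 and 0.51) and Tbl1x (0.45 and 0.38).

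Genes that supply or clear the ligands were counted next. Of 13 tested genes of retinoid handling (18 listed), 8 were higher and 1 lower in young and 7 higher and 3 lower in middle-aged mice (medians 2.79 and 1.83). Dhrs3, a retinal reductase, went from 13.6 and 20.0 CPM in young and middle-aged naïve to 315 and 423 CPM in injured libraries (log2 fold changes 4.54 and 4.39). The retinol transporter-like gene Stra6l went from 0.217 and 0.197 CPM, under the floor, to 33.2 and 40.7 CPM. Aldh1a3, which makes retinoic acid, rose from 0.320 and 1.27 CPM to 6.82 and 17.2 CPM, whereas Aldh1a1 fell (-0.68 and -0.91). Dhrs9 had 0 counts in middle-aged naïve libraries and was at least 69.3-fold higher after injury, against a floor of 3 counts per library.

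For thyroid hormone, 6 of 9 listed genes were tested, and 4 were higher and 1 lower in young and 4 higher and 2 lower in middle-aged mice (medians 1.01 and 1.41). The deiodinase Dio2, which makes the active hormone T3, rose by 1.56 (SE 0.48, adjusted p = 0.0133) in young and 2.39 (SE 0.48, adjusted p = 0.000622) in middle-aged mice on the log2 scale (edgeR). The transporter Slc16a10 (4.59 and 4.66) and Crym (5.40 and 5.07), whose product binds thyroid hormone in the cytosol, also rose, and the transporter Slco1c1 of the blood-brain barrier and astrocytes fell (-1.47 and -1.40). The 3 rises ran opposite to the falls of the receptor genes Thra and Thrb.

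For vitamin D, 5 of 7 listed genes were tested, with 2 higher and 1 lower in young and 1 higher and 1 lower in middle-aged mice (medians 1.39 and -0.56). Cyp27a1, which hydroxylates sterols and vitamin D, fell (-2.14 and -2.43) and Pdia3 rose (1.39 and 1.84). For oxysterols, the LXR ligands, 7 of 8 listed genes were tested, and 1 was higher and 5 lower in young and 1 higher and 6 lower in middle-aged mice (medians -1.24 and -0.89). The gene that rose was Ch25h, which makes 25-hydroxycholesterol. It was at 0.121 CPM in young naïve libraries, under the floor, and at 1.33 CPM in middle-aged naïve libraries. In injured libraries it was at 36.9 and 35.0 CPM. Of 4 tested fatty acid binding proteins (7 listed), which carry PPAR ligands, 3 were higher at both ages and the remaining gene did not pass (medians 1.37 and 1.91). Fabp5 went from 408 and 330 CPM to 1077 and 1636 CPM, and Fabp7 rose by 1.35 and 1.52. Fabp4 had 0 counts in young naïve libraries and 29.9 CPM in young injured libraries, at least 92.9-fold higher against a floor of 3 counts per library.

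Genes known as targets of the receptors were counted in the same way, and many of them answer to other factors too. Of 15 tested LXR targets (16 listed, Nr1h3 itself among them), 10 were higher and 2 lower in young and 10 higher and 3 lower in middle-aged mice (medians 1.46 and 1.49). Abca1, the cholesterol exporter, went from 35.9 and 55.8 CPM in young and middle-aged naïve to 600 and 620 CPM in injured libraries (log2 fold changes 4.07 and 3.47), and the lipase Lpl rose by 4.10 and 3.48. The apolipoprotein gene Apoc2 was at 0.0302 CPM in young naïve libraries, under the floor, and at 0.549 CPM in middle-aged naïve libraries. It was at 180 and 249 CPM after injury. The LXR targets that fell most were the fatty acid desaturases Scd2 (-1.92 and -2.21) and Scd1 (-2.10 and -1.72), which are abundant in myelinating cells. With age, 3 LXR targets were higher and 1 lower in naïve tissue, among them Lpl (0.85, adjusted p = 0.00221) and Scd1 (-0.87, adjusted p = 0.0471), and 1 was lower in injured tissue, Scd2 (-0.65, adjusted p = 0.0373, edgeR).

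Of 21 tested PPAR targets (23 listed), 10 were higher and 3 lower in young and 8 higher and 5 lower in middle-aged mice, with medians of 0.25 and 0.24. Beside Fabp4, those that rose included Cd36, the fatty acid translocase and scavenger receptor, and Plin2, which coats lipid droplets. Cd36 was at 0.669 and 1.71 CPM in naïve and 268 and 506 CPM in injured libraries of young and middle-aged mice (log2 fold changes 8.62 and 8.23), and Plin2 at 22.3 and 30.9 CPM and then 631 and 943 CPM (4.82 and 4.94). Cd36 was higher in middle-aged mice in naïve tissue (1.31, adjusted p = 0.0299) and in injured tissue (0.92, adjusted p = 0.00401), and Fabp4 in injured tissue (0.85, adjusted p = 0.0448, edgeR). Among the genes that fell was Hadhb (-0.54 and -0.53), which encodes a subunit of the mitochondrial trifunctional protein of fatty acid oxidation.

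The DNA element bound by a PPAR with RXR is a direct repeat of the hexamer AGGTCA with 1 base between its copies (DR1). Both strands of RefSeq promoter windows (GRCm38.p6, 250 bases before to 50 after a transcript start) were searched for it, allowing 2 mismatches in the 12 fixed bases. Of the receptor genes 9 had a window, and of their 15 windows 1 (6.67%) held a match, as did 4 of the 16 windows of PPAR targets (25.0%) and 3.86% of all 32851 windows. The hexamer AGGTCA alone was in 4 of the 15 receptor windows (26.7%), 6 of the 16 target windows (37.5%) and 16.3% of all windows. The matches in Rxra and in the 4 target genes are shown. These targets did not all change alike with injury. Cd36, Plin2 and Slc25a20 (log2 fold changes 0.96 in young and 1.07 in middle-aged mice) rose, and Ucp3 fell (-2.44 and -2.37). Each is printed from the plus strand with the 8 bases on either side, and capitals mark the hexamers. All 5 sequences carry 2 mismatches to the repeat, and a match is a description of letters, not a site shown to be bound.
Rxra (chr2:27709209-27709237): ctgagtaaTGGTCAtAGGCCAgtgggtgg
Cd36 (chr5:17835939-17835967): atccaagtAAGTCAgAGGCCAgagaacca
Plin2 (chr4:86670264-86670292): tctgacttAGGTCAgGGGTCCtgaaagct
Slc25a20 (chr9:108662134-108662162): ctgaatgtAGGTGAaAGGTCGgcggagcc
Ucp3 (chr7:100472932-100472960): tcagaattAGGTTTcAGGTCAgctggtgc

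In Rxra the match was centred 69 bases before the start of a transcript that begins inside the gene, and the window at its most upstream start held none. In Cd36 and Plin2 the repeat was read on the strand opposite to the gene. The windows of Pparg and Ppara held no DR1 match, and neither did those of Nr1h3 and Vdr.

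Of 8 tested thyroid hormone receptor targets (11 listed), 2 were higher and 6 lower in young and 2 higher and 5 lower in middle-aged mice (medians -1.17 and -0.95). Thrsp, a lipogenic gene named for its response to thyroid hormone, fell by 2.42 and 2.78 on the log2 scale in young and middle-aged mice. Mbp, which encodes myelin basic protein, fell by 2.0 and 2.50, and the transcription factor gene Klf9 by 1.61 and 1.76. The 2 targets that rose were Aldh1a3 (4.37 and 3.75) and Cbr2. Cbr2 had 0 counts in the naïve libraries and was at 1.86 and 1.49 CPM after injury. Mbp is also on the oligodendrocyte marker list, and the levels of Thra fell with injury in the same libraries as the markers of oligodendrocytes, astrocytes and, in part, neurons. The share of the marker change in the values of Thra and its targets was not tested.

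Of 7 tested retinoic acid receptor targets (9 listed), 4 were higher at each age, not all of them the same genes, and the remaining 3 did not pass (medians 2.79 and 1.83). Next to Dhrs3, these included Tgm2, a transglutaminase (2.79 and 2.72). Of 5 tested vitamin D receptor targets (10 listed, Vdr itself among them), 3 were higher and 1 lower in young and 3 higher and 2 lower in middle-aged mice. The medians were 3.65 and 3.72. In middle-aged mice the median was 2.24 when Tnfsf11, with 0 counts in the naïve libraries of that age, was set to its lower bound. Cyp24a1, also listed, had at most 3 counts in any library and was not tested. Trpv6 did not pass in young mice and fell in middle-aged mice (-2.04, adjusted p = 0.00987, edgeR). Spp1, which encodes osteopontin, went from 126 and 150 CPM to 8740 and 13396 CPM, and the monocyte antigen gene Cd14 rose by 3.65 and 3.72, while Vdr fell. Both are also abundant in activated myeloid cells, whose markers rose in the same libraries, and the part of these cells in the values was not tested.

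**Figure D4:**
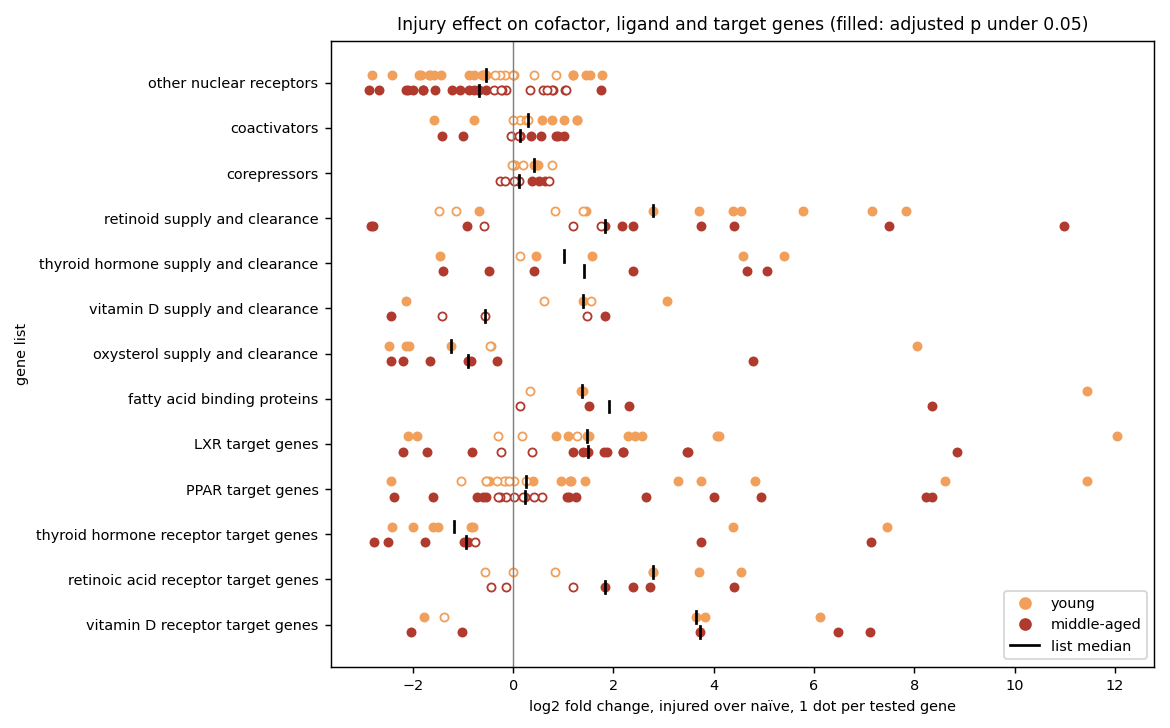
Log2 fold change with injury (x axis) of each tested gene (dots) of the lists of other nuclear receptors, cofactors, ligand handling genes and target genes (y axis), for young and middle-aged mice, with the list median as a bar. LXR, retinoic acid receptor and vitamin D receptor targets have medians above 1 at both ages. The lists for retinoid supply, thyroid hormone supply and fatty acid binding proteins do as well. Thyroid hormone receptor targets lie mostly below 0 (medians -1.17 and -0.95), and PPAR targets spread to both sides of 0.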

How the data were processed

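RNA was profiled in 12 libraries of laser-captured white matter (amplified RNA, Illumina NextSeq500). The authors checked reads with FastQC 0.11.4, used TopHat 2.0.10, which runs Bowtie (1.1.2), for alignment to GRCm38, and deposited raw counts per gene from featureCounts. The annotation release, strand setting and handling of shared reads are not given in the sources used here. Symbols and merged exon lengths came from GENCODE on GRCm38, with 45143 of 46078 genes named. Counts were fitted with edgeR 4.0.16 in R 4.3.3 (TMM, filterByExpr, glmQLFTest, 1 coefficient per group, no covariates), and p-values were adjusted over 15866 genes (threshold 0.05). Standard errors (SE) were obtained from the fold change and its F statistic. Isotype ratios used counts + 0.5. The fit and the permutation test were tested on simulated data.

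The receptors and gene lists were chosen with earlier results of these data known. Of each list, at most 3 genes at the top and 3 at the bottom by mean injury effect were named if called at both ages with the same sign, without overlap and with a mean log2 CPM of at least 1. Thrb, Cyp24a1, Trpv6 and the genes on a bound or on the DR1 lines were named after their values were seen. Some listed genes that the rule names are not reported here. Alternatives were DESeq2 1.42.0, other scalings and filters, a replicate block, fits of the compared libraries only and each library left out. Age in weeks or months is from the methods. Groups and replicate numbers are from the labels. Floors cover counting error only.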

Additional observations from a re-analysis of the deposited data

How the results depend on the processing

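The number of receptors called after injury (7 in young, 6 in middle-aged mice) ran from 5 to 8 and from 4 to 7 with each library left out in turn, and the counts for age and for the difference of injury effects stayed at 0 there. For age in injured tissue DESeq2 and a fit of the 6 injured libraries each called 1 gene, Pparg. The shift of the Pparg to Ppard ratio ran from 1.06 to 1.76 with libraries left out. Rxra, Pparg, Nr1h3 and Thra passed at both ages under every alternative run. Ppard in middle-aged mice, at -0.00, turned positive with DESeq2 size factors (0.016), library totals alone (0.13), DESeq2 (0.0075), no filter (0.010), the replicate block (0.078) and without middle-aged naïve replicate 2 (1.06) or middle-aged injured replicate 2 (0.02) or 3 (0.22). With libraries left out it ran from -0.41 to 1.06. Nr1h2 in young mice went to 0.16 with library totals alone, which also moved the median of all genes by 0.196 in young mice. The cause was not tested.

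Libraries with the same replicate number did not deviate together (r from -0.113 to 0.153 over 18 pairs, 2 of them over 0.1, and -0.174 to 0.172 over 36 pairs with other numbers), so the numbers were not taken to pair samples. With the replicate block 7 and 6 receptors were called. Over all genes, the count called for age in naïve tissue was 603, and 1114 with DESeq2, 1153 without a filter and 78 with the naïve libraries alone. For age in injured tissue it was 182, and 450, 437 and 795 with the injured libraries alone. For the difference of injury effects it was 22, and 238 with DESeq2 and 329 without a filter.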
